A study of Mus musculus with 6 samples.

Results

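GATA4 distal regions with partial GATA6 support were regions of the combined GATA4 list of mouse XEN cells that overlapped no region of the combined GATA6 list, yet overlapped by 1 bp or more a region called in at least 1 of the 3 GATA6 libraries. Their midpoints lay more than 1 kb from every annotated transcription start site (TSS) of protein-coding or lncRNA genes. There were 2045 such regions among the 8282 of the GATA4 list (24.7%). They made up 48.0% of its 4259 distal regions (95% exact binomial interval 46.5 to 49.5%) and 79.7% of the 2566 distal regions that the GATA6 list lacked (78.1 to 81.2%). Of the other distal GATA4 regions, 1693 overlapped a region of the GATA6 list and are called shared here, and 521 overlapped no region of any GATA6 library and are called absent. The 79.7% rests on the full set of libraries and on the overlap rule. Without any 1 GATA4 library it was 61.6 to 63.4%, with 1666 to 1839 absent regions. Without any 1 GATA6 library it was 63.0 to 63.5%, with 785 to 832. When a GATA6 region had to cover at least 50% of the GATA4 region, it was 57.1% (1464 regions), with 1102 absent. The regions were chosen by the calls of all 6 libraries, so their overlap with GATA6 libraries is described below and not tested.

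The study carried out CUT&RUN, in which an antibody guides a nuclease to a bound protein and the DNA it releases is sequenced, on GATA4 and on GATA6 in 3 libraries per factor. The labels give the XEN line 3F2, for both groups, with 500000 cells. Per the study's methods this line carried an Oct4-GFP reporter, a reprogramming cassette at Col1a1 (TetO-OKSmCh) and the transactivator M2rtTA at R26. These were starting, unconverted XEN cells, so by the labels the groups had the same genotype and treatment and differed in the antibody. XEN cells are stem cells of the primitive endoderm (PrE), and nothing in the labels says whether libraries came from separate cultures, so spreads over libraries may be technical. Cell identity could not be checked against marker expression, which was not analysed here. The libraries held 42446 to 49597 called regions each, with a median maximum of 4 stacked fragments, and the labels state 30 M reads per sample.

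GATA4 and GATA6 are zinc finger transcription factors that recognise closely related DNA words around the letters GATA, and both are known to install and hold the PrE programme. GATA6 acts early in PrE specification and GATA4 follows it. Many of their sites lie in enhancers far from promoters, where sites of SOX and TEAD proteins and of the AP-1 dimers of FOS and JUN are also common. A region list splits a graded signal into called and not called, so a region can be in 1 list and not in another while both libraries have fragments there.

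The windows below are examples from the strongest of these regions and from those beside genes of the lineage. All of these examples hold a GATA match, so they do not represent the class. Each is the plus strand of GRCm38 (mm10), 5′ to 3′, in 121 bases centred on the median position of maximum signal over the 3 GATA4 libraries. Capitals mark a GATA match on either strand, that is A or T, then GATA, then A or G, or the reverse complement. The first 4 were among the 10 regions with the highest mean within-library percentile of GATA4 signal, and the others are the nearest such region to a gene of the lists described further on.
Kdr side, chr5:75826408-75826528: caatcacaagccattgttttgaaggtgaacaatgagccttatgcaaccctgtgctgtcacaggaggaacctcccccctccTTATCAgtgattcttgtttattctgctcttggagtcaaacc
Zfp868 intron, chr8:69623797-69623917: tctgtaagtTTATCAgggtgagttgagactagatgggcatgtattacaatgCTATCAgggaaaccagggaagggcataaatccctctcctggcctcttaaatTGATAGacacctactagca
Nuak1 side, chr10:84441990-84442110: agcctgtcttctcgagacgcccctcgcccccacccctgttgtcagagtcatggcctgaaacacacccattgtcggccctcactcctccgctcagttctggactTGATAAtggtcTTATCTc
Etfbkmt side, chr6:149155420-149155540: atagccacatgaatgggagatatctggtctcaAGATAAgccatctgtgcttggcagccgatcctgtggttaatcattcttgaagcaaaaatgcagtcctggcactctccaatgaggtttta
Gata4 side, chr14:63281939-63282059: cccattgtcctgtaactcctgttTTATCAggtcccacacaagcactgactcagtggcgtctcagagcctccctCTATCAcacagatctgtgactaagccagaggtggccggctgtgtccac
Sox7 side, chr14:63957894-63958014: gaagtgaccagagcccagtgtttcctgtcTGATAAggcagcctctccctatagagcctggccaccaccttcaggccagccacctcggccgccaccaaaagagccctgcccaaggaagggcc
Lama1 intron, chr17:67702099-67702219: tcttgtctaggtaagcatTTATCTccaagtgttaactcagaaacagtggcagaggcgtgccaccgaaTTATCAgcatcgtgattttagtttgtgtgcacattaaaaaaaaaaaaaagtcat
Lifr intron, chr15:7098494-7098614: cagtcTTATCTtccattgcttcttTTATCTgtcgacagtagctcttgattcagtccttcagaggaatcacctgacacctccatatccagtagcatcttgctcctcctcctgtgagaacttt
Fgfr3 side, chr5:33700388-33700508: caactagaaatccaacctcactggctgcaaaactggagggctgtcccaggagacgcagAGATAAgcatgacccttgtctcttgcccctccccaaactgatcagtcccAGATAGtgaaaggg
Nid2 intron, chr14:19803787-19803907: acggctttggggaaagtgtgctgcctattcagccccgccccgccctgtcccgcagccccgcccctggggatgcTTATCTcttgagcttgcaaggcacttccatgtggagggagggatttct

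Not every such window held a GATA match. The following 2 regions had none within 100 bp of the GATA4 maximum, although the first was supported by all 3 GATA6 libraries and ranked among the 10 strongest.
Zfp395 side, chr14:65343801-65343921: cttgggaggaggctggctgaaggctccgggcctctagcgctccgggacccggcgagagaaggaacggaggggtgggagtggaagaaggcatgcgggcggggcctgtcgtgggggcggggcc
Foxa2 side, chr2:148027445-148027565: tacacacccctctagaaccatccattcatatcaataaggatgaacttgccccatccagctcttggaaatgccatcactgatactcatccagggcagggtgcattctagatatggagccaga

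GATA6 libraries called a region at these sites singly or in pairs. In 861 regions (42.1%) 1 GATA6 library had an overlapping region, in 1153 (56.4%) 2 did, and in 31 (1.52%) all 3 did. In those 31, the regions of the 3 libraries did not join into 1 block, so the GATA6 list held none there. The pairs were 333 regions with replicates 1 and 2, 456 with 1 and 3, and 364 with 2 and 3. Single support came from replicate 1 in 288 regions, from replicate 2 in 264 and from replicate 3 in 309. No single library supplied the class, since each of the 3 supported between 992 (48.5%) and 1160 (56.7%) of the regions. Where a GATA6 library had no region on a member, the nearest one it called lay a median of 7426, 8315 and 7625 bp away in replicates 1, 2 and 3, and 2.35 to 2.71% of those members had one within 200 bp.

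**Figure D1:**
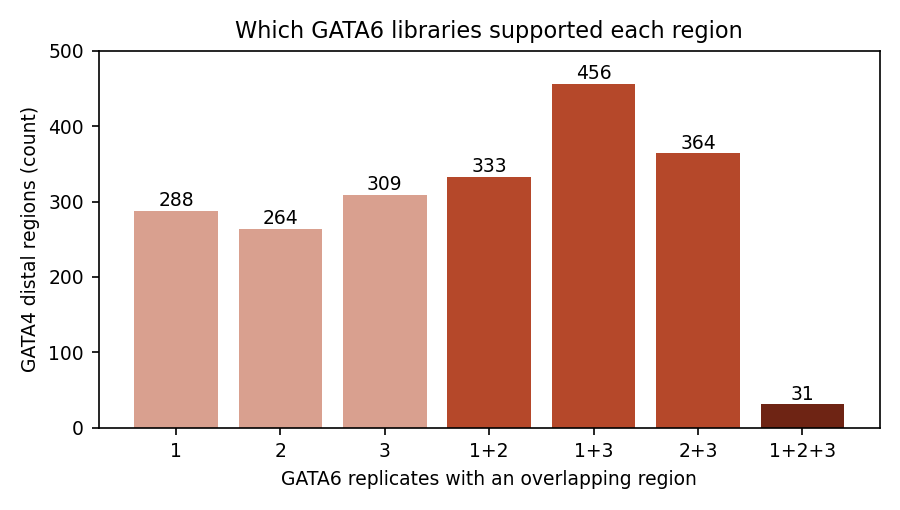
Number of GATA4 distal regions with partial GATA6 support (y axis, count) by the GATA6 replicates that had an overlapping region (x axis); light, middle and dark bars stand for 1, 2 and 3 libraries. The pair of replicates 1 and 3 was the most frequent with 456 regions, and 31 regions were overlapped in all 3 libraries.

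This overlap was set against the surroundings. Of the 2566 distal GATA4 regions that the GATA6 list lacked, 43.2, 38.7 and 45.2% overlapped a region of GATA6 replicates 1, 2 and 3. Windows of equal width moved 20 kb to either side overlapped one in 5.79, 5.53 and 5.63%. For at least 1 library the shares were 79.7 and 12.2%, and for at least 2 libraries 46.1 and 3.35%. Chromosomes 8, 14 and 19 carried more called regions per Mb than the other autosomes in every library, and there the moved windows reached 26.0%, against 8.44% elsewhere, while the regions themselves stood at 79.5 and 79.8%. In the opposite direction, 554 of the 686 distal regions found only in the GATA6 list (80.8%) overlapped a region of at least 1 GATA4 library. These shares are descriptions, since the same calls defined the class.

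The supporting GATA6 regions were not the weakest of their lists. Their median percentile of total signal (fragment pileup summed over the base pairs, ranked within the library) was 76.4, 76.7 and 77.8 in GATA6 replicates 1, 2 and 3, and their median maximum was 6 stacked fragments in each. At shared distal regions the GATA6 medians were higher, with percentiles of 92.2, 92.3 and 92.8 and maxima of 8, 7 and 8. The single GATA6 library with most overlap covered a median of 63.4% of a region, and in 1501 of 2045 regions (73.4%) it covered at least 50%. Only 8 regions had less than 10% covered. The smallest overlaps that kept a region in the class were 22, 35 and 37 bp, and the nearest absent regions missed a GATA6 region by 6, 39 and 44 bp. At the TSS limit, the regions just inside lay 1010, 1013 and 1014 bp from a TSS, beside Crygn, Zdhhc14 and Gpx4, and those just outside 995, 994 and 994 bp. The closest gaps between a member and a region of the GATA6 list were 6, 16 and 22 bp.

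The distance between the positions of maximum signal of 2 libraries was measured within each region. The rule required a GATA6 region to overlap the GATA4 region, which by itself brings the maxima of the factors close, so these distances are a description. The positions of maximum signal of 2 GATA4 libraries lay a median of 47 bp apart over 6135 pairs, and 72.0% lay within 100 bp. Those of a GATA6 and a GATA4 library lay a median of 53 bp apart over 9780 pairs, with 68.5% within 100 bp. Libraries of the same replicate number were 58.5, 50 and 55 bp apart. By GATA6 replicate, the medians to a GATA4 library ran from 54 to 63 bp in replicate 1, from 50 to 53 bp in replicate 2 and from 44 to 55 bp in replicate 3. Between GATA4 libraries they ran from 42 to 50 bp, so the ranges of GATA6 replicates 2 and 3 met the spread among GATA4 libraries and that of replicate 1 lay above it.

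**Figure D2:**
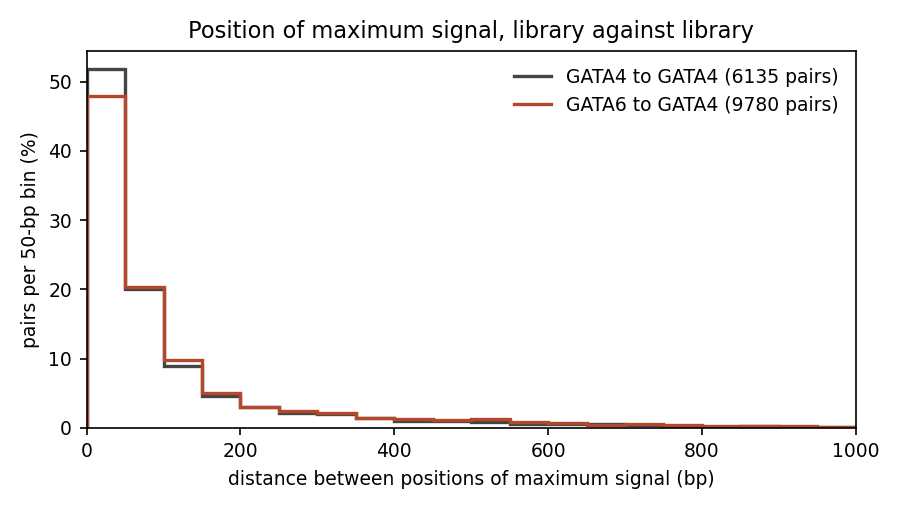
Share of pairs of libraries (y axis, % per 50-bp bin) by the distance between their positions of maximum signal in GATA4 distal regions with partial GATA6 support (x axis, bp); the grey line compares GATA4 with GATA4 libraries and the red line GATA6 with GATA4 libraries. The lines follow each other, with medians of 47 and 53 bp.

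GATA4 signal at these regions was intermediate. Their median percentile of total GATA4 signal was 85.6, 85.4 and 84.0 in GATA4 replicates 1, 2 and 3 (mean 85.0 ± 0.886, SD, n = 3). Shared distal regions stood at 94.99 ± 0.445 and absent ones at 72.3 ± 1.66 (SD, n = 3). The difference from shared regions was -9.99 ± 0.497 points of percentile, between -10.5 and -9.59 in every library. The difference from absent regions was 12.7 ± 0.777, between 12.2 and 13.6. It kept its direction but not its size under other settings, with 21.3 to 23.3 points when 1 GATA4 library was left out, 5.75 when regions were ranked by maximum signal and 3.79 when a GATA6 region had to cover 50% of the GATA4 region. Both had an exact two-sided sign-flip permutation p of 0.25, the smallest that 3 libraries can give, so the test could decide nothing. The calls of the same libraries chose the regions and set the classes, so these differences are descriptions. The direction was the same in 3 of 3 libraries and the quartiles overlapped between classes. Regions supported by 2 GATA6 libraries ranked higher in GATA4 signal than those supported by 1, at 87.2 ± 0.536 against 80.5 ± 2.14 (difference 6.68 ± 1.67, SD, n = 3, exact sign-flip p = 0.25). This too is a description, since the GATA6 calls that chose the regions also made the split. In fragments, the median maximum of GATA4 was 7 at the regions in all 3 libraries, 10 to 11 at shared regions and 6 at absent regions.

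**Figure D3:**
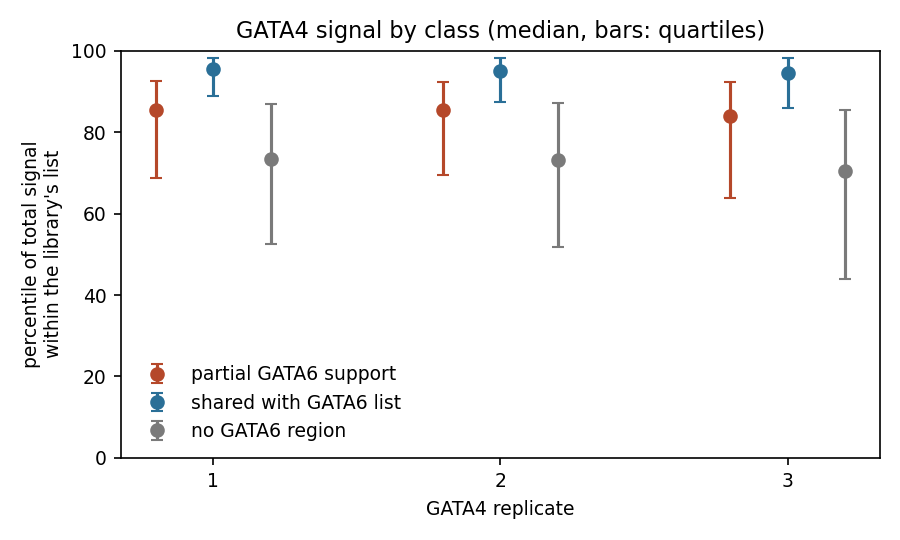
Within-library percentile of total GATA4 signal (y axis) in each GATA4 replicate (x axis) for distal regions with partial GATA6 support (red), shared with the GATA6 list (blue) and without a GATA6 region (grey); points are medians over regions and bars span the quartiles. In each library the red median, 84.0 to 85.6, lay between the others.

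The strongest of the regions by GATA4 percentile are given with their maxima in both factors. The rule itself required a GATA6 region at each. The first by mean GATA4 percentile (99.3), on chromosome 5 from 75825662 to 75827057, lay between genes, 152098 bp from the TSS of Kdr, a VEGF receptor gene. Its maximum was 15, 11 and 14 fragments in GATA4 replicates 1, 2 and 3, and 8 in GATA6 replicates 1 and 3, with no region in replicate 2. The second, in an intron of Zfp868 on chromosome 8 (69623220 to 69624586), had GATA4 maxima of 13, 17 and 10 and GATA6 maxima of 8 and 9 in replicates 2 and 3. It held 4 GATA matches within 100 bp of the GATA4 maximum, 3 of them in the window printed above. The third lay in an intron of Map3k5, a stress kinase gene, and had GATA4 maxima of 19, 12 and 21 against 8 and 7 in GATA6 replicates 2 and 3. A region in an intron of the lncRNA gene Gm47962, 1508 bp from the TSS of the kinase gene Nuak1, had GATA4 maxima of 14, 19 and 19 and GATA6 maxima of 7 and 8 in replicates 2 and 3. The signal is not scaled for depth and the regions were ranked by GATA4, so the levels of the factors are set side by side and not compared.

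The rest of the 10 strongest were introns of Vill, Cgnl1 and Gm47283, and regions 14698 bp from Zfp395, 13336 bp from Etfbkmt and 112587 bp from Rnf32. The Vill region had GATA4 maxima of 8, 7 and 18 and GATA6 maxima of 5 and 9 in replicates 1 and 3, so the ranges overlapped. The Gm47283 region had 19, 14 and 11 for GATA4 and 12 and 13 in GATA6 replicates 2 and 3, which also overlapped. It lay in the pseudoautosomal part of the Y chromosome, whose sequence the X chromosome also carries, so its fragments cannot be placed with certainty. The Zfp395 and Etfbkmt regions were supported in all 3 GATA6 libraries. Their GATA4 maxima were 10, 8 and 7, and 7, 7 and 11, and their GATA6 maxima 7, 6 and 4, and 5, 10 and 5, so the factors' ranges overlapped at Etfbkmt and met at 7 fragments at Zfp395. The others with support in 3 libraries that ranked highest lay 138911 bp from Serp2, 54664 bp from Pnoc and in an intron of Myof. These 31 regions were wide, with a median of 1231 bp against 716 bp (quartiles 570 to 935) over all 2045.

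A few regions departed from this picture. GATA4 maxima were 15 or less in every GATA4 library at 1968 of the 2045 regions, and 9 regions had 15 or more in all 3. The 5 with the highest maximum in any library, picked after their values were seen, were narrow, from 155 to 410 bp. The highest, on chromosome 3 (99199169 to 99199481), had GATA4 maxima of 57, 45 and 44 and GATA6 maxima of 29 and 22 in replicates 2 and 3, with no GATA match in its 313 bp. The next, on chromosome 3 (109076690 to 109077099), had 38, 47 and 36 for GATA4 and 28 and 36 for GATA6 in replicates 2 and 3, and held 3 GATA matches. The 5 regions had mean GATA4 percentiles of only 70.4 to 91.1, since total signal also counts width.

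Sequence was not used to choose the regions. Within 100 bp of the midpoint, 1229 of 2045 regions (60.1%) held a GATA match on either strand, against 31.8% of windows of the same length 2 kb to either side and 39.9% of the midpoints of all 8282 GATA4-list regions. Only 4259 of those 8282 are distal, so shares over the whole list, here and below, also take in promoter regions. The difference from the flanks was 28.3 percentage points (95% Newcombe interval 25.7 to 30.8, two-sided Fisher's exact test, Benjamini-Hochberg adjusted p = 3.58e-98 over 24 motif tests, in which regions and not replicates are the units). Centred on the GATA4 maximum, the share was 72.3%, with 30.3% of regions holding 1 match, 24.99% holding 2 and 17.0% holding 3 or more. Of the 2815 matches there, 41.7% read AGATAA, 23.7% read TGATAA, 22.2% read AGATAG and 12.5% read TGATAG. Matches were densest near the maximum, with 7.76 per kb within 40 bp of it and 2.12 per kb at 400 to 500 bp.

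**Figure D4:**
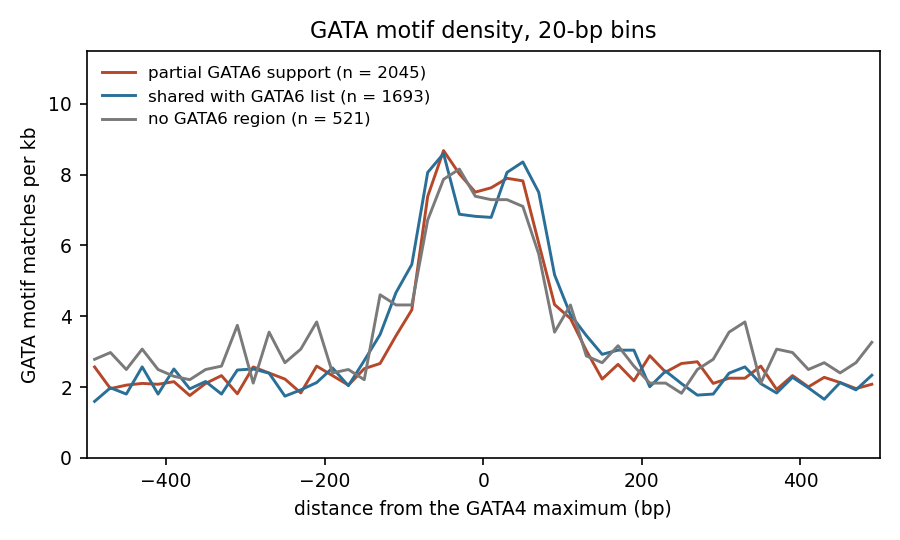
GATA motif matches per kb in 20-bp bins (y axis) by distance from the median position of maximum GATA4 signal (x axis, bp) for distal regions with partial GATA6 support (red), shared with the GATA6 list (blue) and without a GATA6 region (grey). All 3 classes rose near the maximum, the red line from 2.12 per kb at 400 to 500 bp to 7.76 per kb within 40 bp.

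The share with a GATA match did not differ detectably from that of the other distal classes. Shared regions stood at 58.5%, a difference of 1.56 points (95% interval -1.60 to 4.73, Fisher's exact test, adjusted p = 0.493), and absent regions at 62.6%, a difference of -2.47 points (-7.05 to 2.25, adjusted p = 0.473). The number of supporting GATA6 libraries made no detectable difference either, with 61.3% of regions supported by 1 library and 59.2% of those supported by 2 or more (Fisher's exact p = 0.337). Both comparisons between classes depended on the settings. When a GATA6 region had to cover 50% of the GATA4 region, the difference by Fisher's exact test became 5.81 points from shared regions (adjusted p = 0.00258) and 8.72 points from the enlarged absent class (adjusted p = 3.43e-05). Leaving out any GATA4 library, which lengthens the GATA4 list, turned the difference from absent regions to between 4.17 and 6.37 points (Fisher's exact test, adjusted p from 5.89e-05 to 0.0110). By GATA6 coverage, the match share at the GATA4 maximum was 74.4% (95% exact interval 72.1 to 76.6) in the 1501 regions at least 50% covered and 66.5% (62.4 to 70.5) in the other 544, a split made after the data were seen and not tested.

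The match share moved with the rank of GATA4 signal. At the GATA4 maximum it was 63.9% in regions with a mean GATA4 percentile up to 70, 71.1% from 70 to 80, 74.0% from 80 to 90, 83.8% from 90 to 95 and 81.6% above 95. Shared distal regions in the same bands had 46.4, 59.6, 63.0, 76.2 and 80.9%. Compared within the 5 bands and in the midpoint windows, a comparison added after the data were seen, the regions had more matches than shared ones by 6.96 points (Cochran-Mantel-Haenszel test, asymptotic and not exact, over 2045 and 1693 regions, adjusted p = 0.000424). The same comparison with absent regions gave -5.28 points (the same test, asymptotic and not exact, over 2045 and 521 regions, adjusted p = 0.0816).

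**Figure D5:**
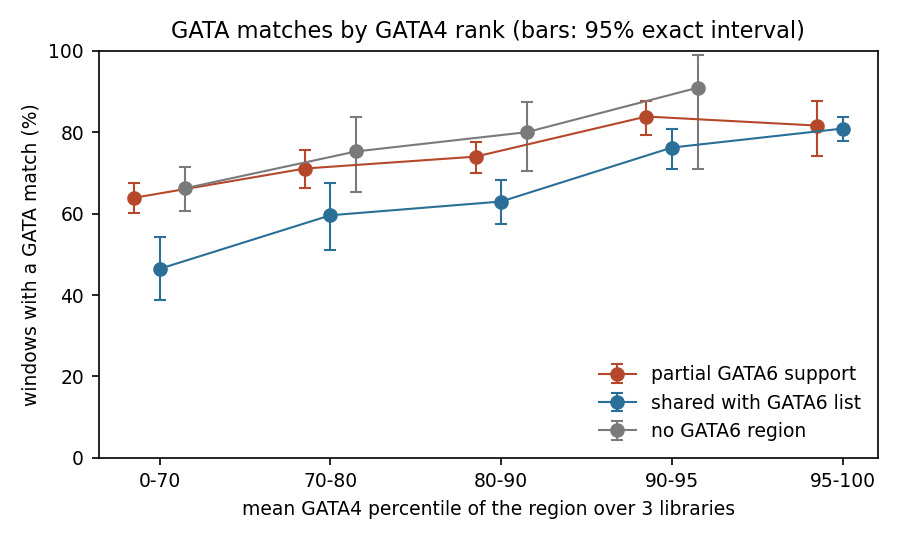
Share of windows within 100 bp of the GATA4 maximum that hold a GATA match (y axis, %) by the region's mean within-library GATA4 percentile (x axis) for distal regions with partial GATA6 support (red), shared (blue) and without a GATA6 region (grey); bars are 95% exact binomial intervals, and bands with under 20 regions are left out. The red points ran from 63.9 to 83.8% and lay above the blue ones in every band, by the least in the highest.

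Where a GATA6 library supported a region, its own maximum could be used as the centre. A GATA match then lay within 100 bp in 63.6, 70.4 and 65.3% of regions for GATA6 replicates 1, 2 and 3. Around the GATA4 maximum of the same regions the shares were 73.0, 73.8 and 70.1%. The GATA4 centre is the median position over 3 libraries and is common to the 3 comparisons, whereas each GATA6 centre comes from a single library, so the shares are not on an equal footing and were not tested.

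AP-1, SOX and TEAD words were also more frequent at these regions than beside them, while forkhead and octamer words were not. The midpoint windows differed from their flanks in composition. Their median GC was 48.3% against 45.8%, and a mean of 14.2% was repeat-masked against 26.9%. The tests against flanks, that of the GATA match included, did not adjust for this. The AP-1 word TGAGTCA was found in 8.70% of midpoint windows and 3.74% of flanks (Fisher's exact test, adjusted p = 2.5e-14), and in 5.48% of all GATA4-list regions. The SOX word ACAATG was found in 19.8 and 10.8% (Fisher's exact test, adjusted p = 5.44e-20, with 13.4% of all regions) and the TEAD word GGAATG in 19.3 and 10.7% (adjusted p = 8.13e-19, with 14.1% of all regions). Forkhead words, TGTTTAC or TATTTAC, stood at 5.04% against 6.21% in flanks (Fisher's exact test, adjusted p = 0.172; 3.97% of all regions), and the octamer ATGCAAAT of OCT factors at 0.831% against 1.27% (adjusted p = 0.314; 0.894% of all regions). All words were sought on both strands, and the tests belong to the same family of 24. AP-1 matches reached 0.845 per kb within 40 bp of the GATA4 maximum, against 0.203 per kb at 400 to 500 bp. Of the 405 regions with the SOX word, 71.1% also held a GATA match, against 57.4% of those without it. For AP-1 the shares were 64.0 and 59.7%, and for TEAD 64.7 and 59.0%. They went the other way for forkhead words (49.5 and 60.7%) and the octamer (47.1 and 60.2%, only 17 regions with it). The same held for the GC-rich word CCCGCCC (37.9 and 61.3%). These shares are descriptions with no test. In 540 regions (26.4%) none of the GATA, AP-1, SOX and TEAD words was found at the midpoint.

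Against the other distal classes only the GC-rich SP/KLF word CCCGCCC and the control word differed in an adjusted test. The SP/KLF word was in 5.04% of the regions and 8.21% of shared ones (difference -3.17 points, 95% interval -4.82 to -1.58, Fisher's exact test, adjusted p = 0.000348), against 2.20% in their own flanks (adjusted p = 2.94e-08), 20.7% of all GATA4-list regions, promoter ones included, and 3.65% of absent ones (adjusted p = 0.332). The control, the GATA letters in reverse order (A or G, then ATAG, then A or T), was in 32.0% of the regions, 26.3% of flanks (Fisher's exact test, adjusted p = 1.22e-05), 27.8% of shared regions (adjusted p = 0.0156) and 22.8% of all GATA4-list regions. It can overlap a GATA match, since GATAG is common to both. Control matches that overlapped no GATA match were in 19.4% of the regions, 18.6% of their flanks, 15.9% of shared regions and 21.7% of absent ones. These shares were not tested, and the regions stayed above shared ones.

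The regions lay in ordinary distal positions. The median distance to a TSS was 11185 bp (quartiles 4608 to 26527), 12.1% lay beyond 50 kb, and 1013 midpoints were in introns, 86 in exons and 946 between genes. The share inside genes, 53.7%, differed from shared regions by 1.76 points (95% interval -1.45 to 4.97, Fisher's exact test, adjusted p = 0.292) and from absent regions by -4.42 points (-9.11 to 0.374, adjusted p = 0.152). By Fisher's exact test the second difference passed without GATA4 replicate 1 (-3.70 points, adjusted p = 0.0319) and without GATA6 replicate 2 (-6.12, adjusted p = 0.0136), and the first without GATA4 replicate 3 (3.79, adjusted p = 0.0199). The first turned to -0.456 points without GATA6 replicate 2 and the second to 1.18 without GATA4 replicate 3. Chromosomes 8, 14 and 19 held 21.4% of the regions and 29.5% of shared ones. Per Mb they carried 1.90 times as many of the regions as the other autosomes did, against 2.91 times as many shared regions and 2.69 to 3.53 times as many regions in the 6 library lists. The GATA match share at the midpoint was 54.3% on these chromosomes and 61.7% on the rest.

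The genes around the regions were counted within 50 kb of a TSS, the distance the study uses. Of 21911 protein-coding genes, 2875 (13.1%) had at least 1 of the regions in reach, and 1597 of the 2045 regions (78.1%) had a protein-coding gene in reach. Most of these genes (2370) had a single one. Lcor, encoding a nuclear receptor corepressor, and Myof, encoding the membrane repair protein myoferlin, had the most with 6 each. Of the 8 genes with 5, Cdh1, which encodes E-cadherin, had no shared or absent distal region beside its 5 on chromosome 8, and Cnnm1 and the retinoic acid hydroxylase gene Cyp26a1 on chromosome 19 had 3 shared regions each. Of the 10 genes with 5 or 6 regions, 9 lie on chromosomes 8, 14 and 19. The exception was Vamp2 on chromosome 11, which like Cdh1 had 5 and no shared or absent distal region. Neighbouring genes share regions, so the genes are not independent.

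Of 12 transcription factor genes of XEN cells and PrE, 6 had one of the regions in reach, against 13.1% of all protein-coding genes. For shared distal regions the count was close, 5 of 12, against 10.3% of all protein-coding genes. No test was made, since the list was chosen with earlier results known. Gata4 had 3 of the regions, from 10152 to 25684 bp from a TSS, beside 3 shared ones. The nearest, printed above, was 2004 bp wide and had maxima of 5, 7 and 6 in the GATA4 replicates and 7 in GATA6 replicate 1 alone, in a GATA6 region of low total signal (percentile 5.22). Gata6 also had 3, from 42730 to 47734 bp, with no shared region within 50 kb. The nearest of these had GATA4 maxima of 11, 13 and 6 and GATA6 maxima of 7 and 5 in replicates 2 and 3. Sox7, a SoxF factor of the endoderm, had 2 (GATA4 maxima 6, 8 and 6 at the nearest, 5 in GATA6 replicate 3) and the pioneer factor Foxa2 had 3 (6, 4 and 5, with 7 and 3 in GATA6 replicates 1 and 3), neither with a shared region. Tcf7l2, a mediator of WNT signalling, had 3 beside 3 shared ones. Sall4, a zinc finger factor of PrE and epiblast, had 1 in its own intron at 2462 bp, with GATA4 maxima of 6, 3 and 9 and GATA6 maxima of 6 and 5 in replicates 1 and 2.

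Receptors and uptake proteins had 9 of 14 genes in reach, against 13.1% of all protein-coding genes. A shared distal region was in reach for 6 of 14, against 10.3% of all. Lifr, the receptor of leukaemia inhibitory factor, had 1 in its intron at 7902 bp, with GATA4 maxima of 17, 8 and 9 and 6 in GATA6 replicate 2. Dab2, an endocytic adaptor of the endoderm, had 1 in its intron (6, 9 and 6, with 8 and 4 in GATA6 replicates 1 and 3), and Cubn, the endocytic receptor cubilin, had 1 at 5855 bp (8, 7 and 5, with 5 and 8 in GATA6 replicates 1 and 2). Pdgfra, a surface marker of PrE, had 1 at 14277 bp with 4, 6 and 4 for GATA4 and 8 and 5 for GATA6 replicates 1 and 3, so the ranges of the factors overlapped. The FGF receptor genes Fgfr1, Fgfr2 and Fgfr3 had 1, 2 and 1, at 3417 bp for the nearest to Fgfr2, and that of Fgfr1 lay in an intron of Nsd3. Kit, encoding the receptor of stem cell factor, had 1 in its intron (8, 7 and 4, with 4 and 8 in GATA6 replicates 2 and 3). Spry2, encoding a feedback inhibitor of receptor signalling, had 1 at 35687 bp with GATA4 maxima of 7, 6 and 7 and GATA6 maxima of 7 and 6 in replicates 1 and 2, so both factors had the same range there.

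Basement membrane genes, which XEN cells are known to express strongly, had 8 of 13 in reach, against 13.1% of all protein-coding genes. Lama1, encoding the laminin alpha chain of the embryonic basement membrane, had 1 in its intron at 5225 bp with GATA4 maxima of 7, 7 and 7 and GATA6 maxima of 8 and 5 in replicates 1 and 3, beside 3 shared regions. Lamb1 had 3 beside 5 shared ones. Nid2, encoding nidogen 2, had 3 and no shared one. Its nearest, 1405 bp from the TSS, had 12, 11 and 11 for GATA4 and 15 and 16 for GATA6 replicates 1 and 3, the highest GATA6 values among the nearest regions of these lists. Sparc, encoding a collagen-binding matrix protein, had 1 beside 3 shared regions (6, 12 and 9, with 3 and 8 in GATA6 replicates 2 and 3). The adjacent type IV collagen genes Col4a1 and Col4a2 shared 1, in an intron of Col4a2. Hspg2, encoding perlecan, had 1 in its intron at 1798 bp (7, 7 and 8, with 6 in GATA6 replicate 1), and the lysyl hydroxylase gene Plod2 had 3. For this list the number with a shared distal region was 10 of 13, against 10.3% of all protein-coding genes.

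AP-1 genes had 3 of 12 in reach, Junb, Fos and Fosb, against 13.1% of all protein-coding genes, while 1 of 12 had a shared distal region. The nearest region to Fos, 18506 bp away, had GATA4 maxima of 8, 6 and 6 and 5 and 5 in GATA6 replicates 1 and 2. None of the nearest regions of these 3 genes held a GATA match within 100 bp of the GATA4 maximum. The genes of the remaining lists were named after their values were seen. YAP and TEAD genes, of the Hippo pathway, had 7 of 12 in reach (Wwtr1, Tead1, Tead3, Lats2, Ccn1, Ccn2 and Amotl2), while 2 of 12 had a shared distal region. BMP and TGF-beta genes had 7 of 15 (Bmp2, Bmp6, Bmpr1a, Smad3, Smad6, Smad7 and Id3), with 2 of 15 for shared regions. Visceral endoderm carrier proteins had 2 of 10 and parietal endoderm genes 4 of 9. Pluripotency genes had 4 of 26 (Klf5, Dppa5a, Lin28a and Tdgf1), or 15.4%, close to the 13.1% of all protein-coding genes. With a shared distal region the counts of these lists were 1 of 10, 4 of 9 and 3 of 26. For comparison, 13.1% of all protein-coding genes had one of the regions in reach, 10.3% a shared distal region and 3.62% an absent one. The region of Bmp6, encoding a BMP ligand, was supported in all 3 GATA6 libraries, with maxima of 6, 5 and 8 for GATA4 and 4, 5 and 5 for GATA6. That of Smad3, a transducer of TGF-beta signals, had 14, 10 and 10 for GATA4 and 8 in GATA6 replicate 2. That of Ccn2, a YAP target gene, ranked highest in GATA4 signal among the nearest regions of all 9 lists (mean percentile 96.7), with 10, 8 and 12 for GATA4 and 10 and 7 in GATA6 replicates 1 and 3. The differences between lists were not tested.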

How the data were processed

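The 6 libraries (3 for GATA4, 3 for GATA6) were grouped by their titles. Read pairs were mapped by the authors with Bowtie2 2.3.4.1 (mm10). Duplicate, mitochondrial and poorly mapped reads and those in blacklisted regions were then dropped, and SEACR 1.3 called regions in each library, a step described without an IgG track. File names give the stringent mode while the study's methods give other wording, and methods name the lines 3F2 and 3F6 and fewer replicates than the labels, which were followed. The deposited library lists give each region's total and maximum signal (fragment pileup, unscaled for depth), used only as ranks or beside each other. The deposited combined lists hold positions only, and merging the 3 library lists of each factor and keeping blocks present in all 3 gave back the same lists. Reads left after filtering are unknown, so precision is an SD over 3 libraries or an interval over regions, whose width reflects counting error alone.

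TSSs, genes and exons came from GENCODE M21 and sequence from GRCm38. Shares were compared by two-sided Fisher's exact tests with Benjamini-Hochberg adjustment, over 24 tests for motifs and over the pair of comparisons for gene bodies. GATA4 percentiles were compared by an exact sign-flip permutation over libraries. Named regions were the 10 of highest mean GATA4 percentile, up to 5 supported by all 3 GATA6 libraries, the nearest to each gene of the transcription factor, receptor, basement membrane and AP-1 lists, the 5 genes with most regions (ties at 5 taken in alphabetical order), and the 3 to either side of each limit. The regions and the 9 gene lists (123 genes) were chosen with earlier results of these data known. The overlap step recovered planted classes in simulated lists. The motif step was run on simulated windows of the letters C and G with planted GATA words. Such windows hold no other GATA match, so background matches were not covered. Alternatives covered overlap, TSS distance, annotation, list length, chromosomes 8, 14 and 19, motif windows, signal measure and leaving out each library. The software was Python 3.11.15 with scipy 1.17.1 and pandas 2.3.3. Sequence was read with samtools 1.23.1 through pysam 0.24.0, and figures were drawn in matplotlib 3.10.9.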

Additional observations from a re-analysis of the deposited data

How the results depend on the processing

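Of 115 alternative values computed over 8 results, 100 kept both the direction and the side of the test's threshold, or, for the number of regions, stayed within 1.5 times. The 100 include 14 alternatives for each GATA4 percentile difference. Their sign-flip p cannot fall below 0.25, so only the direction of these could change. The excess of GATA matches over flanks ranged from 21.7 to 41.1 points over 17 alternatives and passed the test in all of them. The GATA4 percentile was below that of shared regions in 14 of 14 alternatives (-15.0 to -8.62 points) and above that of absent ones in 14 of 14 (3.79 to 23.3). The number of regions ran from 1348 to 3063 when 1 library was left out, the lowest without GATA6 replicate 2. The difference in GATA matches from shared regions became 5.81 points with 50% coverage and 6.96 within bands of GATA4 percentile, both past the threshold, and ran from -0.0156 to 2.01 points when 1 library was left out. The difference from absent regions became 8.72 points with 50% coverage, -7.16 with the top regions of each list (Fisher's exact test, adjusted p = 0.0405) and 0.922 with windows on the GATA4 maximum, and ran from -4.17 to 6.37 when 1 library was left out. The difference inside genes ran from -0.456 to 3.79 points against shared regions and from -6.12 to 1.18 against absent ones when 1 library was left out. The 50% rule moves regions from the class to the absent one by construction. For the other changes the cause was not tested. The signal is few fragments deep. A region missing from a GATA6 library was not called there, which does not show that GATA6 was absent, and the reason was not tested.

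No paired analysis was possible because no test compared GATA4 with GATA6 libraries. This holds only for pairing the factors by replicate number. The sign-flip tests were paired within libraries, since each difference came from medians of the same GATA4 library. The motif test against flanks set 2045 regions against 4090 flank windows and did not pair each region with its own flanks. The distances between maxima of GATA4 and GATA6 libraries, same-numbered ones included, come from no test, since the calls of both factors chose the regions.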
